A study of Mus musculus with 12 samples.

Results

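Cd28, Ctla4 and Icos lie side by side on mouse chromosome 1 and encode the costimulatory and inhibitory receptors CD28, CTLA-4 and ICOS. Their chromatin was described from the ATAC-seq peaks that belong to them. In ATAC-seq a transposase cuts DNA where chromatin is open, and the released fragments are counted by position. A peak was a member when its centre lay within the mm10 span of 1 of the 3 genes, or when 1 of them was the nearest protein-coding gene and lay within 50 kb. This gave 146 of the 222105 peaks of the joint set, with 50 for Cd28, 41 for Ctla4 and 55 for Icos. The centre lay inside a gene span for 50 of them and between genes for the other 96. A filter on low counts kept 136 members for testing, and the 10 left out were 7 peaks of Cd28, 1 of Ctla4 and 2 of Icos.

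CD28 delivers the second signal that a naive T cell needs beside its antigen receptor when it meets CD80 or CD86 on an antigen-presenting cell. CTLA-4 binds the same ligands more tightly, competes with CD28 for them and removes them from the partner cell, which restrains the response. ICOS appears after activation, binds ICOS ligand and signals through PI3-kinase, and it is known for its role in helper T cells, Th17 cells among them. Dexamethasone (Dex) is a synthetic glucocorticoid that acts through the glucocorticoid receptor, a transcription factor that the gene Nr3c1 encodes.

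The reference table held the promoter of Ctla4 and of no other member. The window is shown because it lies whole inside the peak over the start of the gene, chr1:60908578-60909612, whose values follow below. It runs from 250 bases before the start to 50 bases after it, on the plus strand, at chr1:60908775-60909074 (RefSeq, GRCm38.p6). Capitals mark the 1 match to a searched motif, the core GGAAA bound by NFAT, the factor that calcium signals bring into the nucleus of activated T cells.
Ctla4 promoter: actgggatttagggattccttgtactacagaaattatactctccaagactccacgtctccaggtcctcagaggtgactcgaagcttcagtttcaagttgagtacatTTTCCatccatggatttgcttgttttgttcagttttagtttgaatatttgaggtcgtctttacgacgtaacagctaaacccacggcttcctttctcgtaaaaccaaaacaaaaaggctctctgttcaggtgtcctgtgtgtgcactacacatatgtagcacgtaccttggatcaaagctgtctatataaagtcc
The match lies on the minus strand and reads TTTCC on the printed strand. Of 32851 promoter windows of the same length, 61.3% held GGAAA on either strand. The window held no match on either strand to the palindromic glucocorticoid receptor element, found in 0.00913% of promoters, or to its single arm AGAACA, found in 19.0%. It also held none to the AP-1 motif TGANTCA (7.81% of promoters), the nuclear receptor core AGGTCA (16.3%) or the NF-kB motif GGGNNTTCC (5.82%). Matches to AGAACA can lie within matches to the full element.

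The libraries came from mouse naive CD4+ T cells of spleen and draining lymph nodes that had been driven in culture towards the homeostatic Th17 state. The 4 groups were conditional knockout cells for the glucocorticoid receptor (GR cKO, C57/B6) with Dex, the same cKO cells with control treatment, wild-type cells (WT, C57/B6) with Dex and WT cells with control treatment, each for 2 days and with 3 libraries. Each library was made from 6000 sorted cells with 16 PCR cycles. The Cre driver of the knockout, the Dex dose, the sort gate and the ages of the mice were not given in the sources used. The labels do not say whether the libraries of a group came from separate mice or cultures.

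Totals per library ran from 12988437 to 25081591 counts. The strongest peak of Nr3c1 stood between 56.7 and 69.4 CPM in cKO Dex and between 51.9 and 60.2 in cKO control, against 64.8 to 81.4 in WT Dex and 59.7 to 73.9 in WT control. None of its 24 tested peaks was called between genotypes in control or in Dex (smallest edgeR adjusted p 0.502 and 0.380), so accessibility gives no check of the deletion. All 13 genes of a T helper and Th17 marker list had peaks, and none was at 0 (Cd3e and Cd4 among them). The summed level of that list ran from 2195 to 2397 CPM in WT Dex, against 2381 to 2434 in WT control. The 8-gene B cell list summed to 382 to 408 CPM in WT Dex, against 407 to 437 in WT control. The 8-gene list of CD8 T and NK cells summed to 181 to 188 CPM in WT Dex, against 189 to 191 in WT control, with no overlap, and to 168 to 184 in cKO Dex, against 168 to 181 in cKO control. The myeloid and the stromal lists overlapped between the WT groups, and no gene of these lists was at 0. The share of counts in the strongest 10% of tested peaks was 62.6% ± 1.52 in WT Dex, against 61.2% ± 0.771 in WT control, and 60.3% ± 1.88 in cKO Dex, against 58.9% ± 1.27 in cKO control (SD, n = 3 each). The part of these differences in the results on the cluster was not tested, except where a fit with that share as a covariate is given.

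The cluster covered 253.9 kb, from the lower edge of Cd28 (chr1:60746388-60773359) over Ctla4 (chr1:60909025-60915832) to the upper edge of Icos (chr1:60960773-61000322). The gap between Cd28 and Ctla4 was 135.7 kb, and that between Ctla4 and Icos 44.9 kb. RefSeq places no other protein-coding gene between them, and the lncRNA spans 2310016D23Rik, Gm38137, Gm39650 and Gm34649 held the centres of 40 members. The nearest protein-coding neighbours were Raph1, 179 kb below Cd28, and Pard3b, 638 kb above Icos. Members had a median width of 427.5 bases, against 348 for all peaks, and a median level of 1.96 CPM, against 1.07 for all peaks.

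Per kb of peak, Ctla4 was the most accessible of the 3 genes. Its summed level was 14.2 CPM per kb over the 12 libraries, against 11.6 for Cd28 and 9.60 for Icos. This order held in 12 of 12 libraries, and the ranges over libraries nearly touched, at 12.5 to 15.6 for Ctla4, 10.7 to 12.4 for Cd28 and 8.23 to 10.7 for Icos. The 3 strongest peaks of each gene held 36.0% of the level of Cd28, 44.1% of that of Ctla4 and 36.5% of that of Icos. Most of the level of each gene thus lay in its other peaks. The strongest of all was a broad peak within Ctla4, chr1:60910682-60914278, with a mean of 80.8 CPM. The strongest of Icos lay at chr1:61049431-61051094, with a mean of 40.9 CPM. Its centre was 49940 bases above the upper edge of the gene, just inside the 50 kb limit. The first peak beyond that limit, chr1:61051545-61051803 at 51352 bases, averaged 0.747 CPM in WT Dex, against 0.841 CPM in WT control. The next one, chr1:61054065-61055469 at 54445 bases, averaged 65.1 CPM in WT Dex, against 49.4 CPM in WT control, and is no member. Low members made up most of the list, down to 0.281 CPM.

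**Figure D1:**
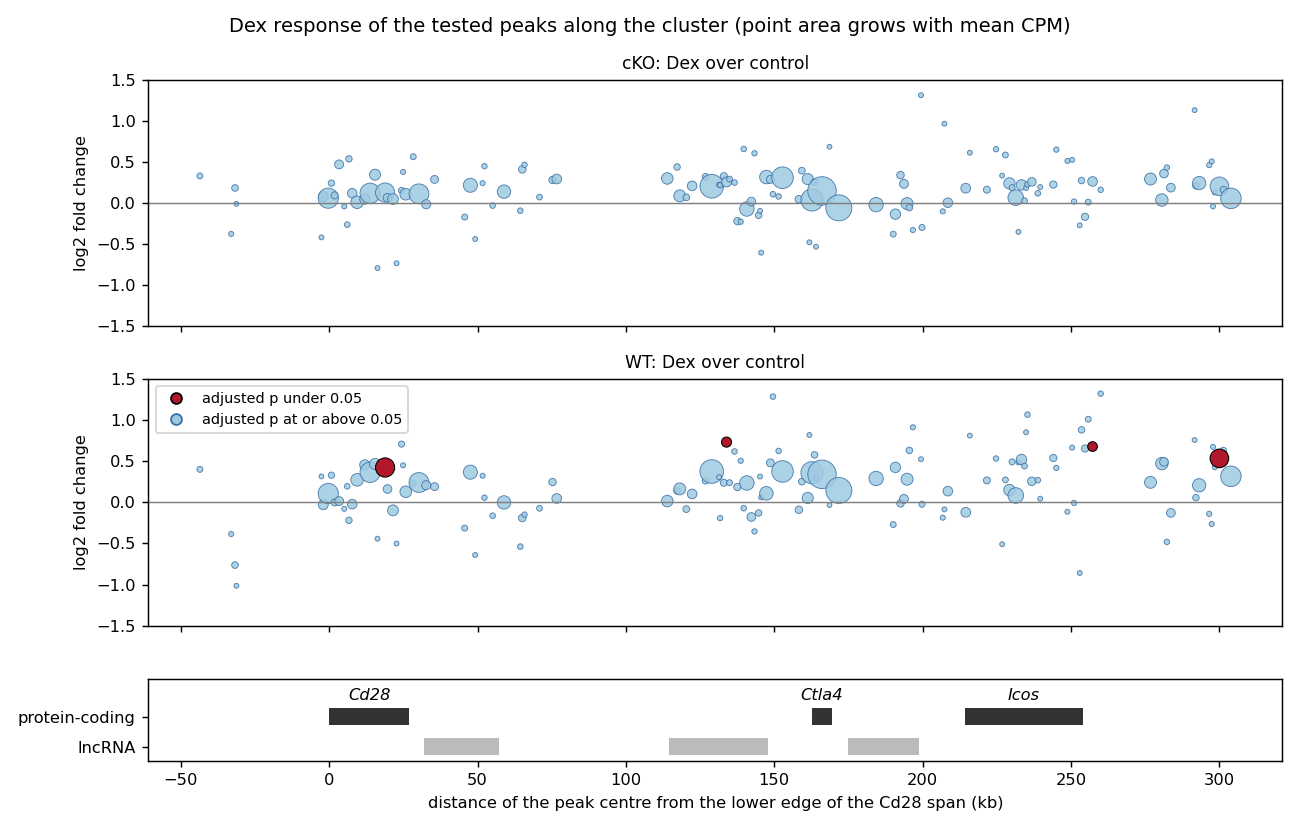
Log2 fold change of Dex over control (vertical axis) of the 136 tested members by the distance of the peak centre from the lower edge of Cd28 in kb (horizontal axis), for cKO above and WT below, with gene and lncRNA spans at the bottom. Point area grows with mean CPM; the 4 red points in WT have an adjusted p under 0.05, and no point in cKO has.

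In WT cells, Dex-treated libraries had higher accessibility at all 3 genes. Over all assigned peaks Icos had the largest difference, followed by Ctla4 and Cd28. No WT Dex library overlapped a WT control library in any of the 3 sums. The share of all genes whose sums also did not overlap was not counted. Counts were summed over all peaks of a gene and tested with edgeR over 17358 genes, of which 2.64% were called and 1.66% were called higher. A gene or peak is referred to as called when its Benjamini-Hochberg adjusted p was under 0.05, and levels are CPM, counts relative to the TMM-scaled size of a library. In such bulk libraries a change in the share of cells with an open site and a change in every cell cannot be told apart.

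With Dex, the WT libraries had 320.5, 304.0 and 311.7 CPM at Icos, against 246.3, 254.4 and 269.7 CPM without it. The lowest Dex library was above the highest control library. The log2 fold change was 0.28 ± 0.04 (SE, n = 3 per group; 1.21-fold) with an edgeR adjusted p of 2.70e-05. Ctla4 stood at 545.5, 516.1 and 530.2 CPM in WT Dex and 437.2, 446.3 and 469.7 in WT control. These groups did not overlap either, and the log2 fold change was 0.23 ± 0.04 (1.18-fold, edgeR adjusted p 8.86e-05). Cd28 stood at 373.8, 373.6 and 377.1 CPM in WT Dex and 326.4, 330.0 and 349.1 in WT control. The Dex libraries lay close together above all 3 control libraries, and the log2 fold change was 0.16 ± 0.04 (1.12-fold, edgeR adjusted p 0.0169). The call for Cd28 was lost without any 1 of 5 of the 6 WT libraries (log2 0.14 to 0.16), without the called peaks (0.13, edgeR adjusted p 0.126) and with the scaling factors of the peak table, a setting added after the data were seen (0.20, edgeR adjusted p 0.153), under which 193 of 216 called genes were higher, against 289 of 459 here. That of Icos was lost when only peaks inside gene spans were summed (0.20, edgeR adjusted p 0.0874). In that setting the order of the genes changed, with Ctla4 at 0.30, Cd28 at 0.24 and Icos the smallest. The neighbours Raph1 and Pard3b were not called, with log2 values of 0.03 ± 0.06 and -0.05 ± 0.05.

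**Figure D2:**
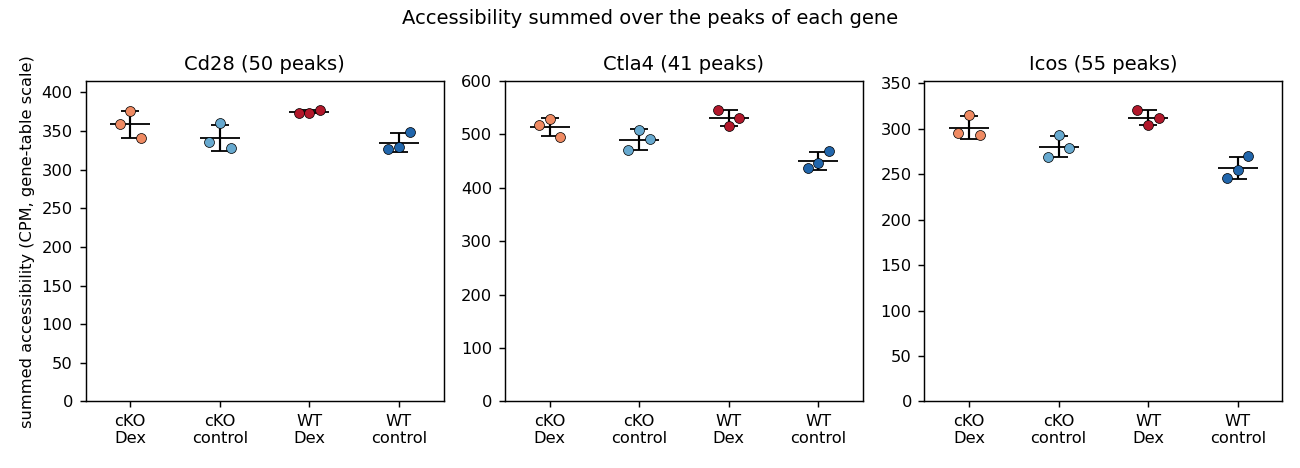
Summed accessibility in CPM (vertical axis, from 0) of Cd28, Ctla4 and Icos in each of the 12 libraries (points) by group, with bars for the mean and SD of 3 libraries. In WT the Dex points lie above all control points for each gene; in cKO they do so for Icos.

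Single peaks gave the same direction with fewer calls. In WT, 4 of the 136 tested members were called higher with Dex and none lower, while 0.533% of all 202587 tested peaks were called, 0.42% higher and 0.113% lower. Of all 1080 calls 851 were higher, against 1031 of 1746 with total counts and 1255 of 2136 with loess offsets in place of TMM. The log2 fold change was positive for 95 of the 136 members (69.9%) with a median of 0.24, against 49.8% and a median of -0.00 over all tested peaks. An unadjusted p under 0.05 was reached by 33 members (24.3%), against 8.31% of all tested peaks, and 32 of the 33 had a higher level, against 4.23% of all tested peaks. The 3 Dex libraries lay above the 3 control libraries at 36 members, and below them at 3, against 6.93% of all tested peaks in each direction. Members were chosen with earlier results of these data known, and neighbouring peaks can share a change, so these counts describe the locus and carry no test of their own.

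By gene, positive values numbered 40 of 53 for Icos, 31 of 40 for Ctla4 and 24 of 43 for Cd28, with medians of 0.32, 0.24 and 0.06, and the difference between the genes was not tested. The 3 members where all Dex libraries were lower belonged to Cd28, making up 6.98% of its tested peaks, against 6.93% of all tested peaks. A pair of them lay 31735 and 31258 bases below it. The farther of that pair, chr1:60714482-60714825, had 1.31, 1.33 and 2.25 CPM in WT Dex and 2.80, 2.59 and 2.95 in WT control. It was not called (log2 -0.76 ± 0.27, edgeR adjusted p 0.306).

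By position, medians were close to each other, at 0.27 for the 48 tested peaks inside the genes, 0.19 for the 38 in lncRNA spans and 0.22 for the 50 outside every annotated span. By level, 19 of the 20 members among the strongest 10% of tested peaks by mean TMM-scaled level (12.7 CPM or more) had a positive value (95%) with a median of 0.30, while 73.7% of all peaks of that level were positive with a median of 0.08. Below that level 65.5% of 116 members were positive with a median of 0.19, against 47.2% and -0.03 over all such peaks. Strong peaks as a whole thus also had mostly positive values, and the members' median exceeded that of all peaks in both classes. With the share of counts in the strongest peaks as a covariate, 92 members were positive and their median was 0.18.

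The 4 called members were 1 peak of Cd28, 1 of Ctla4 and 2 of Icos, and 3 of them lay outside the genes. The peak with the smallest p of the cluster was at chr1:61045735-61047040, 46065 bases above Icos. It had 45.1, 43.5 and 37.2 CPM in WT Dex and 28.3, 31.7 and 26.7 in WT control. The groups were apart by more than their own spread (log2 0.54 ± 0.11, 1.45-fold, edgeR adjusted p 0.00527). This distal peak was the second strongest assigned to Icos and lost its call without 3 of the 6 WT libraries (adjusted p up to 0.134).

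Nearer to Icos, the peak at chr1:61002899-61004381, 3318 bases above the gene, had 9.14, 9.42 and 9.74 CPM in WT Dex and 6.13, 6.07 and 5.53 in WT control. Replicates lay within 1 CPM of each other on both sides (log2 0.68 ± 0.16, 1.60-fold, edgeR adjusted p 0.0230). The called peak of Ctla4, chr1:60879840-60880760, lay 28725 bases below the gene within the lncRNA span Gm38137. It had 11.2, 9.14 and 8.50 CPM in WT Dex and 4.62, 5.82 and 6.60 in WT control, and had the largest fold of the 4 (log2 0.73 ± 0.17, 1.66-fold, edgeR adjusted p 0.0203). The called peak of Cd28, chr1:60764909-60765557, lay within the gene and was the member with the highest level per kb, at 54.8 CPM per kb. It had 43.9, 43.2 and 41.5 CPM in WT Dex and 28.02, 33.7 and 33.7 in WT control, with an adjusted p just under the threshold (log2 0.42 ± 0.11, 1.34-fold, edgeR adjusted p 0.0496). Without any 1 of the 6 WT libraries the calls of this Cd28 peak and of the nearer Icos peak were lost, and that of the Ctla4 peak was lost without 4 of them. The Cd28 peak also lost its call with RLE size factors and without the count filter (edgeR adjusted p 0.0624 and 0.0745), and the Ctla4 peak with the share in the strongest peaks as a covariate (edgeR adjusted p 0.0542).

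**Figure D3:**
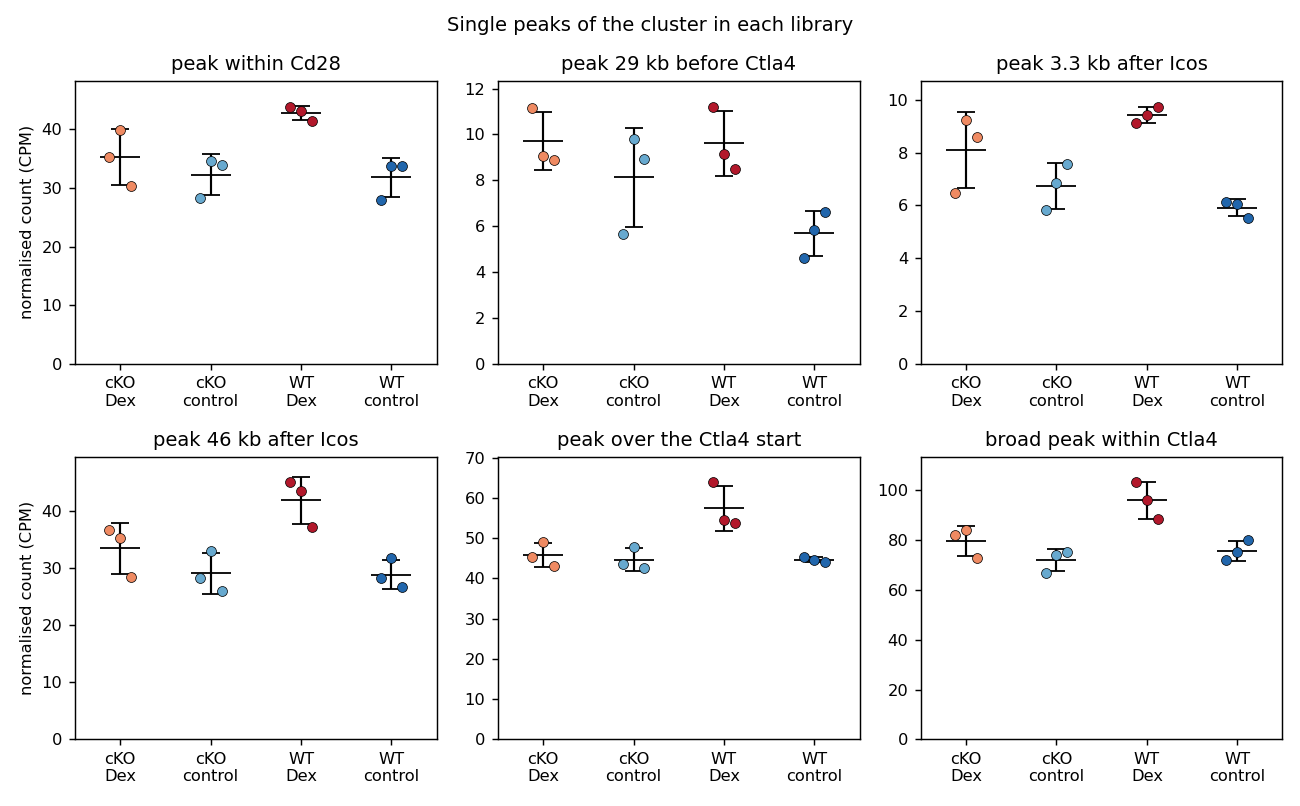
Normalised counts in CPM (vertical axis, from 0) at the 4 called members and at 2 strong peaks of Ctla4, in each of the 12 libraries (points) by group, with bars for the mean and SD of 3 libraries. At all 6 peaks the WT Dex points lie above the WT control points, while the cKO Dex and cKO control points overlap. The 4 called members were chosen by their difference in WT, and the 2 Ctla4 peaks were picked with their values known. The peaks over the lower edges of Cd28 and Icos, whose WT groups overlapped, are not shown. None of the 6 was called for the difference between the WT and cKO responses.

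Some strong peaks of Ctla4 had no overlap between the WT groups and yet missed the threshold. The peak over the Ctla4 start, which holds the promoter printed above, had 63.9, 54.5 and 53.8 CPM in WT Dex and 45.4, 44.5 and 44.2 in WT control. The groups did not overlap, but the value missed the threshold (log2 0.36 ± 0.10, edgeR adjusted p 0.0840). The broad peak within the gene had 103, 96.0 and 88.6 CPM in WT Dex and 71.8, 75.1 and 79.9 in WT control (log2 0.34 ± 0.09, edgeR adjusted p 0.0848). A further strong peak, chr1:60874136-60876493 in the same lncRNA span Gm38137, had 65.2, 64.3 and 58.1 CPM in WT Dex and 42.6, 52.5 and 49.1 in WT control (log2 0.38 ± 0.11, edgeR adjusted p 0.0910). Under other settings the start peak and the broad peak passed the threshold in 8 of 10 fits and the third in 6 of 10. With 1 WT library left out, the broad peak passed in 1 of 6 fits and the others in none (edgeR adjusted p up to 0.577 for the start peak, 0.506 for the broad peak and 0.445 for the third). The wide peak past the upper edge of Ctla4, chr1:60915167-60921128, also had no overlap but a smaller difference (75.4 ± 1.80 CPM in WT Dex, against 68.2 ± 2.96 CPM in WT control; SD, n = 3 each; log2 0.15 ± 0.09, edgeR adjusted p 0.749).

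The peaks over the lower edges of the other genes did not stand apart. The peak over the lower edge of Cd28, chr1:60745540-60746647, had 45.4, 43.2 and 41.4 CPM in WT Dex and 42.6, 37.7 and 40.4 in WT control (log2 0.11 ± 0.10). That over the lower edge of Icos, chr1:60960402-60961429, had 8.26, 7.04 and 6.59 CPM in WT Dex and 6.97, 8.61 and 8.03 in WT control (log2 -0.12 ± 0.16). Both pairs of groups overlapped, and the edgeR adjusted p-values were 0.863 and 0.912. The other strong peaks of Cd28 lay within the gene, chr1:60759439-60760948 (47.8 ± 4.44 CPM in WT Dex, against 37.0 ± 2.62 CPM in WT control, log2 0.37 ± 0.11), and 3292 bases above it, chr1:60775099-60778204 (43.8 ± 0.590 against 36.9 ± 2.04 CPM, log2 0.24 ± 0.10). The WT groups did not overlap at either peak, but neither was called, with edgeR adjusted p-values of 0.128 and 0.490. Under other settings the peak within Cd28 passed the threshold in 5 of 10 fits and the other in 0. The other strong peaks of Icos were the one near the 50 kb limit (47.3 ± 1.90 CPM in WT Dex, against 38.0 ± 0.559 CPM in WT control, log2 0.32 ± 0.10, edgeR adjusted p 0.212) and one within the gene at chr1:60977275-60978260. This last peak had 28.7, 24.9 and 19.8 CPM in WT Dex and 21.2, 22.8 and 25.0 in WT control, and its groups overlapped (log2 0.08 ± 0.12). At the peak near the 50 kb limit the WT groups did not overlap, and it passed in 1 of 10 fits under other settings.

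In cKO cells no member was called with Dex, while 0.00296% of all tested peaks were. The smallest adjusted p of a member was 0.837, and 9 members had an unadjusted p under 0.05, all with a higher level, while 5.84% of all tested peaks reached it and 2.61% with a higher level. The log2 fold change was nonetheless positive for 103 of the 136 members (75.7%) with a median of 0.17, against 49.4% and a median of -0.00 over all tested peaks. By gene this was 44 of 53 for Icos, 28 of 40 for Ctla4 and 31 of 43 for Cd28. Among the 20 strong members 85% were positive with a median of 0.11, close to the 83.9% and 0.09 of all strong peaks. Below that level 74.1% of members were positive with a median of 0.19, against 45.6% and -0.04 over all such peaks. The 3 Dex libraries lay above the 3 control libraries at 17 members, against 5.28% of all tested peaks, and below them at 1, against 5.5%. With the share of counts in the strongest peaks as a covariate, 88 members were positive and their median was 0.11.

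Summed over its peaks, Icos stood at 294.9, 315.5 and 293.2 CPM in cKO Dex and 269.2, 292.8 and 279.0 in cKO control. The lowest Dex library was within 1 CPM of the highest control library, and the log2 fold change of 0.10 ± 0.04 was not called (edgeR adjusted p 0.538). Ctla4 stood at 517.5, 528.2 and 495.5 CPM in cKO Dex and 470.6, 508.9 and 491.1 in cKO control. Cd28 stood at 359.6, 375.7 and 341.3 CPM in cKO Dex and 335.3, 360.0 and 328.7 in cKO control. For both genes the groups overlapped, with log2 fold changes of 0.07 ± 0.04 (Ctla4) and 0.07 ± 0.04 (Cd28) and edgeR adjusted p-values of 0.639 for each. With Dex in cKO, 0.00576% of all genes were called.

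At the 4 members called in WT, the cKO differences were smaller and the groups overlapped between treatments. These 4 were chosen by their difference in WT, which by itself favours a smaller value in cKO. The distal Icos peak had 36.8, 35.3 and 28.5 CPM in cKO Dex and 28.4, 33.1 and 26.0 in cKO control (log2 0.20 ± 0.11). The nearer Icos peak had 6.46, 9.24 and 8.60 CPM in cKO Dex and 5.84, 6.84 and 7.56 in cKO control (log2 0.26 ± 0.16). The Ctla4 peak in Gm38137 had 11.1, 9.07 and 8.86 CPM in cKO Dex and 5.66, 9.79 and 8.91 in cKO control (log2 0.25 ± 0.16). Here cKO control stood at 8.12 ± 2.177 CPM, against 5.68 ± 0.996 CPM in WT control, so the smaller difference came with a higher mean control level. The 2 control groups overlapped, and their difference was not called (edgeR adjusted p 0.483). The Cd28 peak had 35.3, 40.0 and 30.4 CPM in cKO Dex and 28.3, 34.7 and 34.0 in cKO control (log2 0.13 ± 0.11). The peak over the Ctla4 start was level between treatments, at 45.8 ± 3.03 CPM in cKO Dex, against 44.6 ± 2.84 CPM in cKO control (SD, n = 3 each; log2 0.04 ± 0.10).

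**Figure D4:**
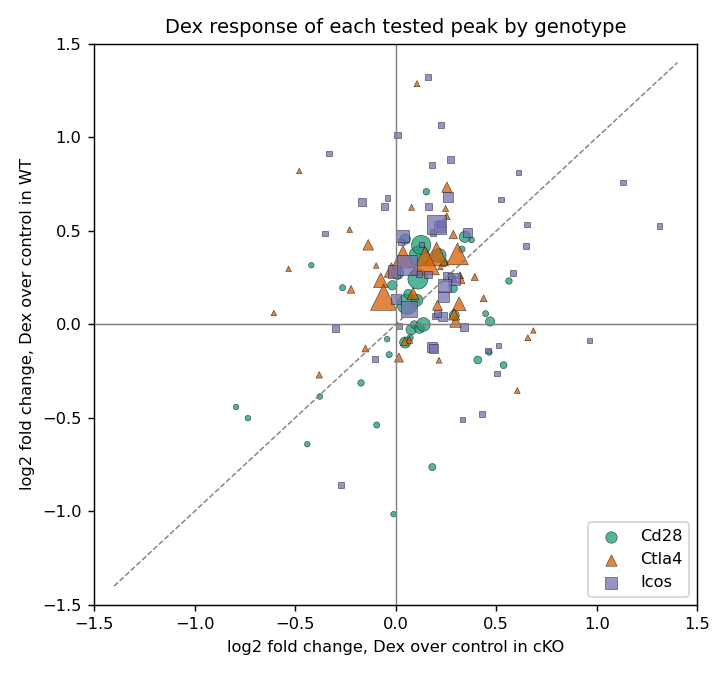
Log2 fold change of Dex over control in WT (vertical axis) against that in cKO (horizontal axis) for the 136 tested members, by gene, with point size growing with mean CPM and a dashed line of equal change. On the WT axis 95 points lie above 0, and on the cKO axis 103. Above the dashed line lie 74 (54.4%), against 50.4% of all tested peaks.

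A smaller value in cKO is not by itself a difference between the genotypes, so the WT and cKO responses were compared directly. No member was called for the difference (WT response minus cKO response), while 0.0276% of all tested peaks were, and the smallest adjusted p of a member was 0.779. An unadjusted p under 0.05 was reached by 9 members, 8 of them with the larger response in WT, while 5.65% of all tested peaks reached it and 2.92% with the larger response in WT. For the sums, the difference was 0.18 ± 0.06 for Icos (unadjusted p 0.00444), 0.17 ± 0.05 for Ctla4 (unadjusted p 0.00306) and 0.09 ± 0.06 for Cd28 (unadjusted p 0.123). Over all genes 0.219% were called, and none of the 3 was among them (edgeR adjusted p 0.334, 0.300 and 0.781). The value for Ctla4 passed with the share of counts in the strongest peaks as a covariate (0.16, edgeR adjusted p 0.0424). That setting called 218 genes for the difference, against 38 in the fit reported. Of the single peaks described above, the one over the Ctla4 start differed by 0.33 ± 0.14 and the distal Icos peak by 0.33 ± 0.16. The called Ctla4 peak differed by 0.48 ± 0.24, while the peak over the lower edge of Icos went the other way (-0.30 ± 0.22). The peak over the lower edge of Cd28 had 0.05 ± 0.15. None of these was called (edgeR adjusted p 0.831, 0.868, 0.884, 0.949 and 0.995), and they were picked with their values known.

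Between genotypes, the sums in cKO control differed from those in WT control by log2 0.13 ± 0.04 for Icos, 0.12 ± 0.04 for Ctla4 and 0.03 ± 0.04 for Cd28. None of these was called (edgeR adjusted p 0.173, 0.145 and 0.810), while 0.213% of genes were. The sign of the Cd28 value turned with loess offsets (-0.013) and with the scaling factors of the peak table (-0.063). The Ctla4 value passed with the same covariate (0.16, edgeR adjusted p 0.0370), a setting with 66 genes called, against 37 in the fit reported. It fell to 0.030 with the scaling factors of the peak table (edgeR adjusted p 0.831). With only peaks inside gene spans it was 0.039 (edgeR adjusted p 0.763). The Icos value fell to 0.036 with those scaling factors (edgeR adjusted p 0.801). No member peak was called in control cells, while 0.0104% of all tested peaks were (smallest adjusted p of a member 0.424). There 9 members had an unadjusted p under 0.05, against 7.68% of all tested peaks. Positive values numbered 68 of 136 members (50%), against 51.6% of all tested peaks, with medians of -0.00 and 0.01. The 3 cKO control libraries lay above the 3 WT control libraries at 14 members and below them at 3, against 6.92% and 7.61% of all tested peaks.

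Between Dex-treated cKO and WT cells the sums differed by log2 -0.05 ± 0.04 (Icos), -0.05 ± 0.04 (Ctla4) and -0.06 ± 0.04 (Cd28), and none was called, while 2.3% of genes were. Of these 399 genes 227 were higher in cKO, against 11 of 167 with the scaling factors of the peak table. With only the peaks inside gene spans, Ctla4 was lower in cKO Dex (log2 -0.21, edgeR adjusted p 0.0179), at 140.4 ± 4.12 CPM in cKO Dex, against 162.3 ± 7.91 CPM in WT Dex (SD, n = 3 each). No member peak was called, while 0.171% of all tested peaks were, and 22 members had an unadjusted p under 0.05, 17 of them lower in cKO, against 8.35% of all tested peaks in both directions. Over all peaks 81 of 346 calls were higher in cKO, against 486 of 866 with total counts and 532 of 993 with loess offsets. The 3 cKO Dex libraries lay above the 3 WT Dex libraries at 15 members and below them at 22, against 6.48% and 6.19% of all tested peaks. The smallest adjusted p was 0.0825, at chr1:60757993-60758806 within Cd28, a peak chosen after its values were known. It had 7.71, 7.31 and 8.02 CPM in cKO Dex, against 12.3, 10.97 and 11.2 CPM in WT Dex (log2 -0.58 ± 0.15). The 3 cKO libraries lay below the 3 WT libraries there. The comparisons share libraries wherever they share a group.

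Over the 12 libraries the sums of Ctla4 and Icos followed each other most closely. Their log2 levels had a Pearson r of 0.987, and each was the most alike of 17357 genes for the other. Cd28 ranked lower, with r of 0.894 to Icos and 0.878 to Ctla4. After Icos, the genes most like Ctla4 were Marcks (0.955) and Tctex1d1 (0.952), and after Ctla4, those most like Icos were Mkln1 (0.959) and Wwox (0.956). The genes most like Cd28 were Mob1b (0.939), Cyp4f17 (0.927) and Spef2 (0.924). These values describe libraries that share depth, scaling and the 4 group means, and carry no test.

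The other receptors of the family did not pass. The family list held 5 genes, of which the 3 cluster genes had a called peak with Dex in WT and Pdcd1 and Btla, which encode the inhibitory receptors PD-1 and BTLA, had none. Over all genes with a tested peak, 3.12% had a peak called higher and 1.07% a peak called lower. Per peak, 4 of the 176 tested peaks of the family were called higher (2.27%), against 0.42% of all tested peaks. The cluster held 136 of the 176, so Pdcd1 and Btla had few peaks in which a call could arise. By sums, Pdcd1 and Btla had log2 values of 0.07 ± 0.04 and 0.11 ± 0.05 in WT (edgeR adjusted p 0.511 and 0.370). Of the 6 ligand genes, 1 had a called peak, Cd80, which encodes a ligand shared by CD28 and CTLA-4. That was 1 of the 119 tested peaks of the ligand genes (0.84%). The peak of Cd80, chr16:38458476-38459347 within the gene, had 34.9, 30.2 and 30.9 CPM in WT Dex and 21.1, 23.3 and 19.5 in WT control. The groups stood far apart (log2 0.58 ± 0.11, 1.50-fold, edgeR adjusted p 0.00197), and in cKO the same peak had 25.0 ± 3.15 CPM with Dex, against 22.8 ± 1.98 CPM in control. The summed Cd80 level was also called in WT (log2 0.43 ± 0.07, edgeR adjusted p 1.10e-04). The sums of Cd86, which encodes the other shared ligand, and of Icosl, which encodes ICOS ligand, had log2 values of -0.05 ± 0.04 and 0.09 ± 0.06 and were not called.

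**Figure D5:**
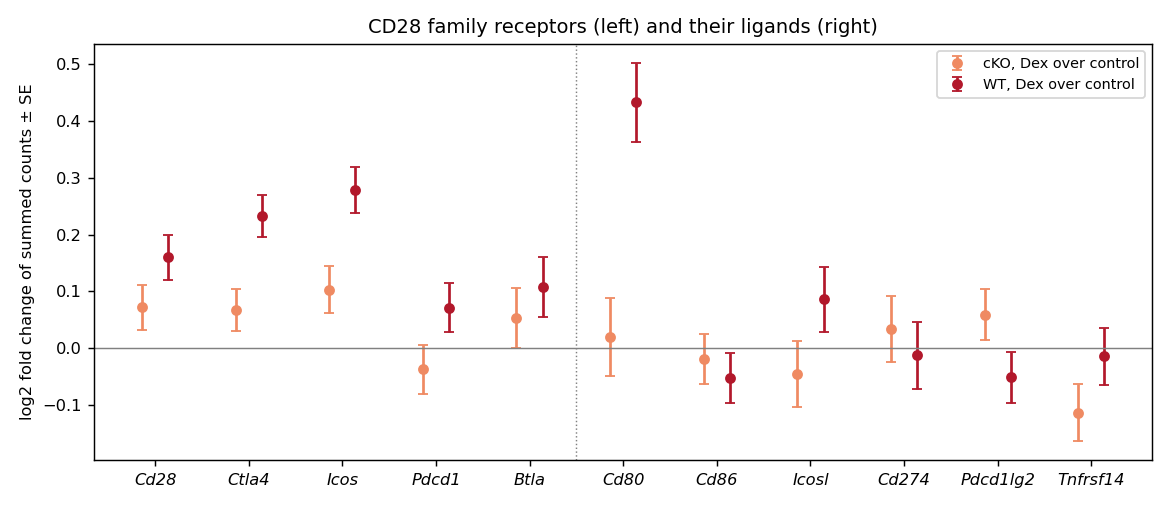
Log2 fold change of summed counts, Dex over control, with SE (vertical axis) for the 5 CD28 family receptor genes on the left and the 6 ligand genes on the right, in cKO and in WT. In WT, Cd28, Ctla4, Icos and Cd80 have an adjusted p under 0.05, and in cKO none of the 11 genes has.

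Among 28 genes of costimulation signalling, 5 had a peak called higher with Dex in WT and 3 a peak called lower, while 3.12% and 1.07% of all genes had one. These genes have many peaks, and per peak 7 of 955 were called higher (0.733%) and 3 lower (0.314%), against 0.42% and 0.113% of all tested peaks. The higher peaks included those of Grap2, an adaptor that binds CD28 (log2 0.81 ± 0.14), of Pik3r1, the regulatory subunit of the PI3-kinase that CD28 and ICOS engage (0.85 ± 0.18 and 0.42 ± 0.10 at 2 peaks), of Ptpn11, a phosphatase recruited by inhibitory receptors (0.84 ± 0.18), and of Cblb, a ubiquitin ligase that sets the need for costimulation (0.61 ± 0.11 and 0.58 ± 0.13 at 2 peaks). The lower peaks belonged to Lck and Fyn, kinases that start antigen receptor signalling (-0.86 ± 0.21 and -0.93 ± 0.23), and to Inpp5d, a phosphatase that opposes PI3-kinase (-0.70 ± 0.16). Of 16 genes of the transcriptional output, Il21, a cytokine of ICOS-dependent helper cells, had 3 peaks called higher (log2 0.46 to 0.70) and Jun, a subunit of AP-1, had 1 called lower (-1.09 ± 0.27), which is 0.569% and 0.19% of the 527 tested peaks of that list. The sums of Cblb (0.18 ± 0.04), Pik3r1 (0.16 ± 0.04) and Il21 (0.13 ± 0.04) were called higher in WT as well. Those of the 3 signalling genes with a lower peak and of Jun were not called (Lck -0.07, Fyn -0.08, Inpp5d 0.01 and Jun 0.05; edgeR adjusted p 0.620, 0.203, 0.965 and 0.677). Without a called peak, the sum of Lcp2, an adaptor of antigen receptor signalling, was lower (-0.18 ± 0.03) and that of Nfkb1, which encodes an NF-kB subunit, higher (0.16 ± 0.04). Both were named with their values known. In cKO none of these 44 genes had a called peak with Dex, while 0.0231% of genes had one called higher. In control cells none of them had a peak called between genotypes, while 0.0115% of genes had one higher and 0.0231% one lower in cKO. Between Dex-treated cKO and WT cells, 1 peak of Cblb was lower (29.1 ± 1.11 CPM in cKO Dex, against 42.8 ± 1.97 CPM in WT Dex, log2 -0.55 ± 0.11) and 1 peak each of Lck (0.94 ± 0.21) and Nfatc2, which encodes an NFAT factor (0.64 ± 0.13), was higher, while 1.01% of genes had a peak lower and 0.398% a peak higher in cKO. The sums of these genes were not called in that comparison (log2 -0.10 for Cblb, 0.13 for Lck and 0.12 for Nfatc2; edgeR adjusted p 0.206, 0.187 and 0.0603). Among the 44 genes the sums called there, also named with their values known, were higher in cKO for Lcp2 (0.15 ± 0.03) and Trat1 (0.20 ± 0.05) and lower for Bcl10 (-0.18 ± 0.05) and Malt1 (-0.16 ± 0.04). The median log2 fold change of the sums in WT was -0.01 for the ligands, 0.03 for the signalling genes and -0.02 for the output genes, against 0.00 over all genes. For the family it was 0.16, but its 5 genes include the 3 of the cluster and this median is the value of Cd28.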

How the data were processed

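ATAC-seq of 12 mouse T cell libraries was analysed from raw counts per peak of a joint peak set, deposited by the authors without normalisation. The submitters' processing notes name the build mm10 and the tools featureCounts 2.1.1, Genrich 0.6.1, Bowtie2 2.3.5, Trimmomatic 0.39, SAMtools 1.3, Picard 2.18.27 and deepTools 3.5.6. Their settings, any correction for the transposase cut and any pooling before peak calling were not stated. A joint peak set can favour sites open in the libraries it was called on. Chi-square per degree of freedom between replicates was 2.01 to 3.61, above sampling noise, so each library counted once.

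Peaks were assigned to 21887 protein-coding spans of the RefSeq table (GRCm38.p6). The filterByExpr function (minimum count 10, total 15) kept 202587 peaks and left out 19518, and TMM scaling was used. The robust quasi-likelihood F-test of edgeR 4.0.16 under R 4.3.3 was fitted over the 4 groups together (8 residual degrees of freedom, median biological coefficient of variation 24.9%). Two-sided p-values were adjusted (Benjamini-Hochberg) over all peaks, or over 17358 genes for counts summed per gene, which have TMM factors of their own. The SE is the size of the log2 fold change divided by the square root of F. The steps were tested on simulated data. The p-values measure the spread between these libraries, which may be technical.

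Peaks described singly were all called members, the 3 strongest of each gene, the one with the smallest p for Dex in WT and those over a gene start or lower span edge; list genes were named when a peak was called, and some items that meet these rules are not reported here. The strand and start of Cd28 and Icos were not used here. The members, lists and tests were chosen with earlier results of these data known. Library numbers were checked as pairs: of 18 same-numbered pairs, 3 had a correlation of deviations over 0.1 (median 0.044). Of 36 differently numbered pairs 4 did (median -0.011), and 8 of 12 libraries correlated best with their own number. The check did not settle whether same-numbered libraries belong together. No pairing was used, and fits with the number as a block are given below. Alternatives were other scalings, filters, tools (DESeq2 1.42.0, limma 3.58.1) and sample sets, a covariate, a block, other peak assignments and each library left out.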

Additional observations from a re-analysis of the deposited data

How the results depend on the processing

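The count of members called with Dex in WT was 4 in the fit reported, where 1080 of all tested peaks were called. It moved to 12 of 85 tested members under a minimum count of 30, 11 with loess offsets and 9 under scaling by total counts. Over all peaks these 3 settings called 2500, 2136 and 1746. The member count was 7 with DESeq2, 8 with limma-voom and 11 with only the WT libraries in the fit. Over all peaks these called 1298, 1037 and 1778. With only peaks inside the gene spans it was 1 member. Every member call in these fits was in the higher direction. The count was 0 to 3 with 1 WT library left out, with 0 without WT Dex replicate 1 or 2, 1 without each WT control replicate and 3 without WT Dex replicate 3. Those fits called 507 to 975 of all peaks. With the replicate number as a block the member count was 10, with 1736 of all peaks called. The genotype count in Dex was then 3, with 1012 of all peaks called. The check of the numbers as pairs did not settle whether such a block applies, and 8 of 12 libraries correlated best with their own number. For genotype in control the count of 0 became 1 with loess offsets and 1 with a minimum count of 30. There 55 and 137 of all peaks were called, against 21 in the fit reported. For genotype in Dex the count of 0 became 1 with loess offsets and 1 with the covariate. It became 6 with a minimum count of 30 and 3 with DESeq2. Every one of these members was lower in cKO. Over all peaks these settings called 993, 1793, 1973 and 494, against 346 in the fit reported. No member was called for Dex in cKO or for the difference between the responses under any alternative run.

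Among the sums with Dex in WT, Ctla4 and Icos kept their calls in all 6 fits with 1 WT library left out (log2 0.21 to 0.26 and 0.25 to 0.32). Cd28 lost its call in 5 of them (0.14 to 0.19 over the 6), without the called peaks (0.13) and with the scaling factors of the peak table, an alternative added after seeing the data (0.20), and Icos lost its call with only peaks inside gene spans (0.20). The Ctla4 difference between responses and its genotype value in control passed with the covariate (0.16 and 0.16), and its genotype value in Dex passed with only peaks inside gene spans (-0.21). Directions turned for the Cd28 genotype value in control with loess offsets (-0.013), with the factors of the peak table (-0.063) and in 1 fit with a library left out (range -0.015 to 0.057), for the Icos genotype value in Dex with only peaks inside gene spans (0.016), and for the Icos peak at chr1:60977275-60978260 with the covariate (-0.064) and with 1 library left out (range -0.043 to 0.22). The cause of these changes was not tested. The median member level was 1.96 CPM and 10 members fell below the count filter, and detection was not tested against depth.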

Other observations

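A strong peak just past the 50 kb limit above Icos, chr1:61054065-61055469, belonged to no gene under the rule. It had 70.4, 65.1 and 59.9 CPM in the WT Dex libraries, against 45.8, 50.9 and 51.4 CPM in the WT control libraries. The log2 fold change was 0.40 ± 0.10 (SE, n = 3 per group) with an edgeR adjusted p of 0.0426. It was picked out with its values known. In cKO it averaged 57.4 ± 5.76 CPM with Dex, against 49.5 ± 4.13 CPM in control (SD, n = 3 each; log2 0.21).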
